A study of Homo sapiens with 12 samples.

Results

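HL-60 cells given all-trans retinoic acid (ATRA) alone were compared with HL-60 cells given the CDK4/6 inhibitor palbociclib alone. HL-60 is an established cell line from an acute myeloid leukaemia. The contrast used 3 libraries with 100 nM ATRA and 3 libraries with 500 nM palbociclib, all taken after 3 h, out of 12 libraries that also include 3 from untreated cells and 3 with both drugs at the same doses. Each ATRA library was paired with the palbociclib library of the same replicate number. All genes with an RPKM (a read level corrected for gene length and library size) of at least 5 in at least 3 of the 12 libraries were tested, which gave 7820 of the 58233 genes in the table. The other 50413 genes were not tested, and 43013 of these were listed at 0 in every library. The comparison asks where the early transcriptional responses to the drugs part. Each difference is the mean over the 3 ATRA and palbociclib pairs, while the untreated and combination libraries enter the fit through the shared estimate of the spread and are given beside it as levels.

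ATRA binds and activates retinoic acid receptors. These nuclear receptors bind DNA as heterodimers with the retinoid X receptors, release corepressors when the ligand binds, and switch on target genes. In myeloid cells this starts a programme towards granulocytes, in which members of the C/EBP family take part. Palbociclib inhibits the cyclin D kinases CDK4 and CDK6. These kinases phosphorylate the retinoblastoma protein, which otherwise holds E2F factors and keeps the genes of DNA replication low.

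The values were deposited as whole numbers, so a value of 0 lies below the rounding step and a low gene can have the same value in every replicate. Summed over all genes, the RPKM values of a library came to between 358455 and 390247, which is not a read total, and the depth of each library is unknown from the table. The myeloid markers were present in every library, with myeloperoxidase (MPO) at 1077 to 1579 RPKM, PRTN3 at 195 to 310, ANPEP at 19 to 30 and CD33 at 6 to 8. ELANE, the neutrophil elastase gene, was nearly absent, at 0 or 1. All 10 markers of T cells, B cells, erythroid, epithelial, stromal and endothelial cells were at 0 in all 12 libraries. Replicate 1 stood apart from replicates 2 and 3 in the treated groups. The root mean square log2 difference to replicates 2 and 3 was 0.269 and 0.273 for ATRA replicate 1 and 0.267 and 0.28 for palbociclib replicate 1, against 0.154 and 0.179 between replicates 2 and 3 of these groups. The labels do not say whether the replicates are separate cultures, so the spread between these libraries may be technical. The p-values below measure the spread left in all 12 libraries after the shift of each replicate number is taken out.

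After 3 h, the drugs differed at 1775 genes, 22.7% of those tested (limma on all 12 libraries with the replicate number as a block, Benjamini-Hochberg adjusted p under 0.05). In ATRA cells, 860 genes (11% of those tested) were higher than in palbociclib cells and 915 (11.7%) were lower. The counts were similar and the sizes were not. Differences are given throughout as ATRA minus palbociclib on the scale of log2(RPKM + 0.5), with the standard error (SE) of the fit. The median was 0.39 among the higher genes and -0.31 among the lower ones, and 136 of the higher but 23 of the lower genes passed 1 in size. Past 2, the numbers were 40 and 2. The ATRA and palbociclib libraries did not overlap at 1392 genes (17.8% of those tested), among them 627 of the 860 higher and 583 of the 915 lower genes. Of the called genes, 93 were at the minimum of 5 RPKM in every ATRA library and in no palbociclib library, and 51 the reverse. Without the block, the 12 libraries gave 506 higher and 415 lower genes and the 6 libraries of the contrast 373 and 267, without the pair of replicate 2 the numbers were 405 and 274, without that of replicate 3 they were 429 and 308, and without that of replicate 1 they were 636 and 644.

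**Figure D1:**
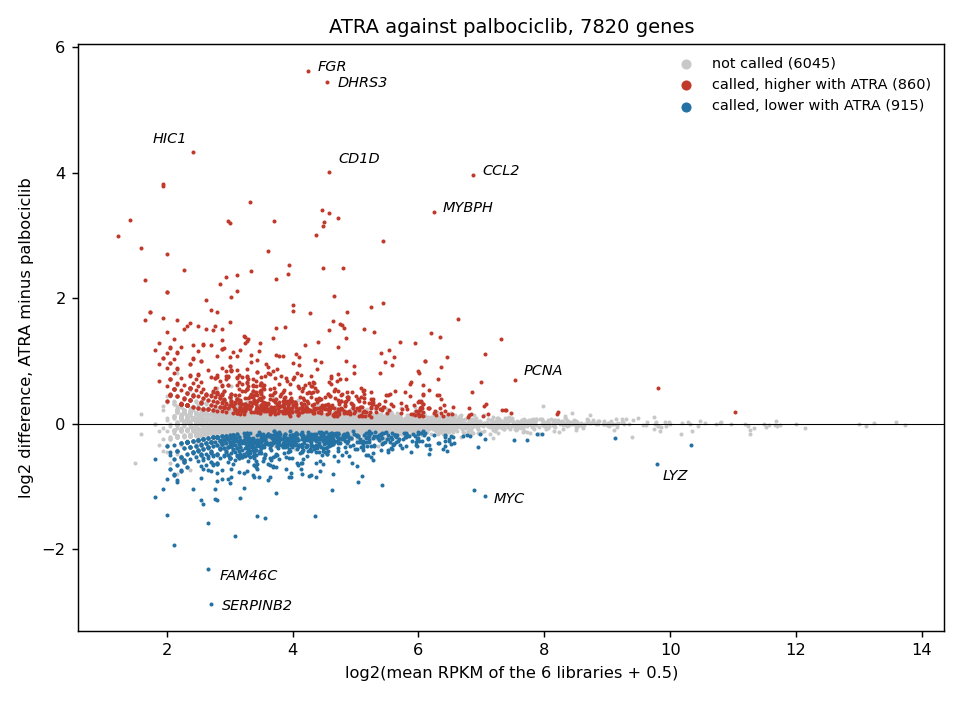
Difference between ATRA and palbociclib (vertical axis, log2) against the mean level over the 6 libraries (horizontal axis, log2 RPKM) for 7820 genes. Red points are the 860 genes called higher and blue points the 915 called lower with ATRA, and the red points reach to 5.62 while the lowest blue point is at -2.88.

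The genes that stood highest with ATRA against palbociclib were absent or low without ATRA. FGR, a Src family kinase of myeloid cells (chromosome 1, 27612064 to 27635185, GENCODE v44 on GRCh38), was at 23, 39 and 48 RPKM with ATRA and at 0, 0 and 1 with palbociclib. DHRS3, which reduces retinaldehyde to retinol (chromosome 1, 12567910 to 12618210), was at 40, 48 and 47 against 1, 1 and 0. The fitted differences were 5.62 ± 0.30 for FGR and 5.45 ± 0.41 for DHRS3 (SE, adjusted p = 6.34e-06 and 3.91e-05), but they rest on palbociclib values of 0 and 1, and over the alternative settings they ran from 4.84 to 7.30 and from 4.85 to 6.51. HIC1, a zinc finger repressor on chromosome 17 (2054154 to 2063241), was at 8, 11 and 10 with ATRA and listed at 0 in the 3 palbociclib and the 3 untreated libraries, so no fold is given. The rule that picked these genes required libraries that do not overlap, so their lack of overlap is no result. The lowest ATRA value was in replicate 1 each time.

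Genes with a higher level under palbociclib mostly gave firmer differences. CCL2, a chemokine that attracts monocytes (chromosome 17, 34255274 to 34257208), was at 207, 232 and 221 RPKM with ATRA and at 13, 13 and 15 with palbociclib, a difference of 3.96 ± 0.07 (SE, adjusted p = 1.57e-08). CD1D, which presents lipid antigens (chromosome 1, 158178030 to 158186427), was at 38, 49 and 47 against 3, 2 and 2. MYBPH, a myosin-binding protein, was at 96, 155 and 162 against 11, 15 and 12. In each of these the palbociclib libraries lay within 3 RPKM of the untreated ones, which were at 11, 11 and 13 for CCL2, at 2 in all 3 for CD1D and at 8, 13 and 13 for MYBPH. The spermine oxidase gene SMOX was at 41, 41 and 39 against 5, 4 and 3, the fructose transporter gene SLC2A5 at 35, 44 and 41 against 4, 3 and 3, and ASB2, a ubiquitin ligase subunit, at 11, 15 and 15 against 1, 1 and 1. ASB2 thus rests on palbociclib values of 1, and over the alternative settings its difference ran from 2.86 to 3.63. The other 6 of the 15 highest were AC011899.2, LILRA5, LRG1, NCF1C, NCF1 and ENDOD1, of which AC011899.2 (5, 7 and 8 with ATRA) and LILRA5 (4, 8 and 8) were listed at 0 in the palbociclib libraries, and the other 4 had differences from 3.23 for ENDOD1 to 3.53 for LRG1. NCF1 and NCF1C are near-identical copies, so the split of reads between them is uncertain, and AC011899.2 is annotated as an antisense RNA whose reads cannot be told from those of the opposite gene, since no source used here says whether strand was kept.

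Transcription factors of myeloid differentiation, a list that also holds factors of immature cells, were called in both directions. Of 14 factors tested, 7 were called higher and 3 lower with ATRA, against 11% and 11.7% of all genes, and the median difference was 0.29 where that of all genes was 0. CEBPE, which acts late in granulocyte maturation, was at 116, 116 and 118 RPKM with ATRA and at 48, 39 and 47 with palbociclib, a difference of 1.38 ± 0.06 (SE, adjusted p = 2.05e-06). CEBPB was at 36, 45 and 39 against 10, 9 and 9 (2.04), CEBPA at 56, 55 and 47 against 38, 39 and 37 (0.46), and the repressor gene GFI1 at 84, 85 and 86 against 56, 58 and 61 (0.54). IRF1 and ID1 were also higher, at 7, 7 and 6 against 2, 2 and 2 and at 5, 7 and 7 against 1, 1 and 0. MYB, a factor of immature cells, was at 26, 26 and 33 with ATRA and 52, 53 and 63 with palbociclib, a difference of -0.97 ± 0.05 (SE, adjusted p = 7.54e-06), and IRF8 (-0.39) and CEBPG (-0.20) were the other 2 that were lower. SPI1, which encodes the myeloid factor PU.1, was not called, at 108, 102 and 105 against 102, 95 and 93. The count of lower factors was 1 without replicate 2 or without replicate 3 and 5 with the libraries centred on their medians.

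Among genes of myeloid function and the cell surface, 14 of 25 tested were called higher and 3 lower, against 11% and 11.7% of all genes. CD38, a surface enzyme, was at 13, 17 and 20 RPKM with ATRA and at 3, 2 and 3 with palbociclib (2.44 ± 0.20, SE, adjusted p = 6.36e-05). The adhesion molecule gene ICAM1 was at 8, 19 and 15 against 1, 1 and 1. CYBB, the catalytic subunit of the phagocyte oxidase, was at 50, 73 and 75 against 25, 34 and 34 (1.07), and the kinase gene LYN at 30, 33 and 32 against 18, 21 and 20 (0.68). CSF3R, the receptor of granulocyte colony-stimulating factor, was at 8, 12 and 14 against 5, 5 and 5. TLR2, which senses bacterial lipoproteins, went the other way at 5, 5 and 6 against 9, 10 and 11 (-0.85), as did FCGR1A (-0.53) and ANPEP (-0.28). Without replicate 3 the higher count was 8. ITGAM, the gene of the differentiation marker CD11b, was below the filter, at 1, 1 and 2 with ATRA and 0, 0 and 1 with palbociclib.

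RARA and RXRA differed in opposite directions. RARA was at 15, 18 and 16 RPKM with ATRA and at 11, 12 and 11 with palbociclib (0.51 ± 0.07, SE, adjusted p = 0.00109), while its partner RXRA was at 8, 9 and 10 against 12, 15 and 16 (-0.64 ± 0.05, SE, adjusted p = 6.71e-05). Neither pair of groups overlapped. The corepressor gene NRIP1 and the coactivator gene NCOA3 were higher, at 7, 14 and 14 against 3, 3 and 4 and at 37, 69 and 67 against 18, 31 and 29, and for both the ATRA value in replicate 1 was well under the others. Of 11 receptor and coregulator genes tested, 3 were called higher and 2 lower, against 11% and 11.7% of all genes, the other lower one being the demethylase gene KDM1A. RXRB was not called, at 14, 15 and 16 against 15, 15 and 14. The retinoid metabolism list had 5 tested members, with DHRS3 higher and RETSAT lower (6, 7 and 6 were its untreated values, 7, 8 and 7 those with ATRA and 9, 9 and 9 those with palbociclib). The call of RETSAT (-0.28) was lost in 10 of 16 alternatives. CYP26A1, CYP26B1 and RARB were listed at 0 in all 12 libraries.

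**Figure D2:**
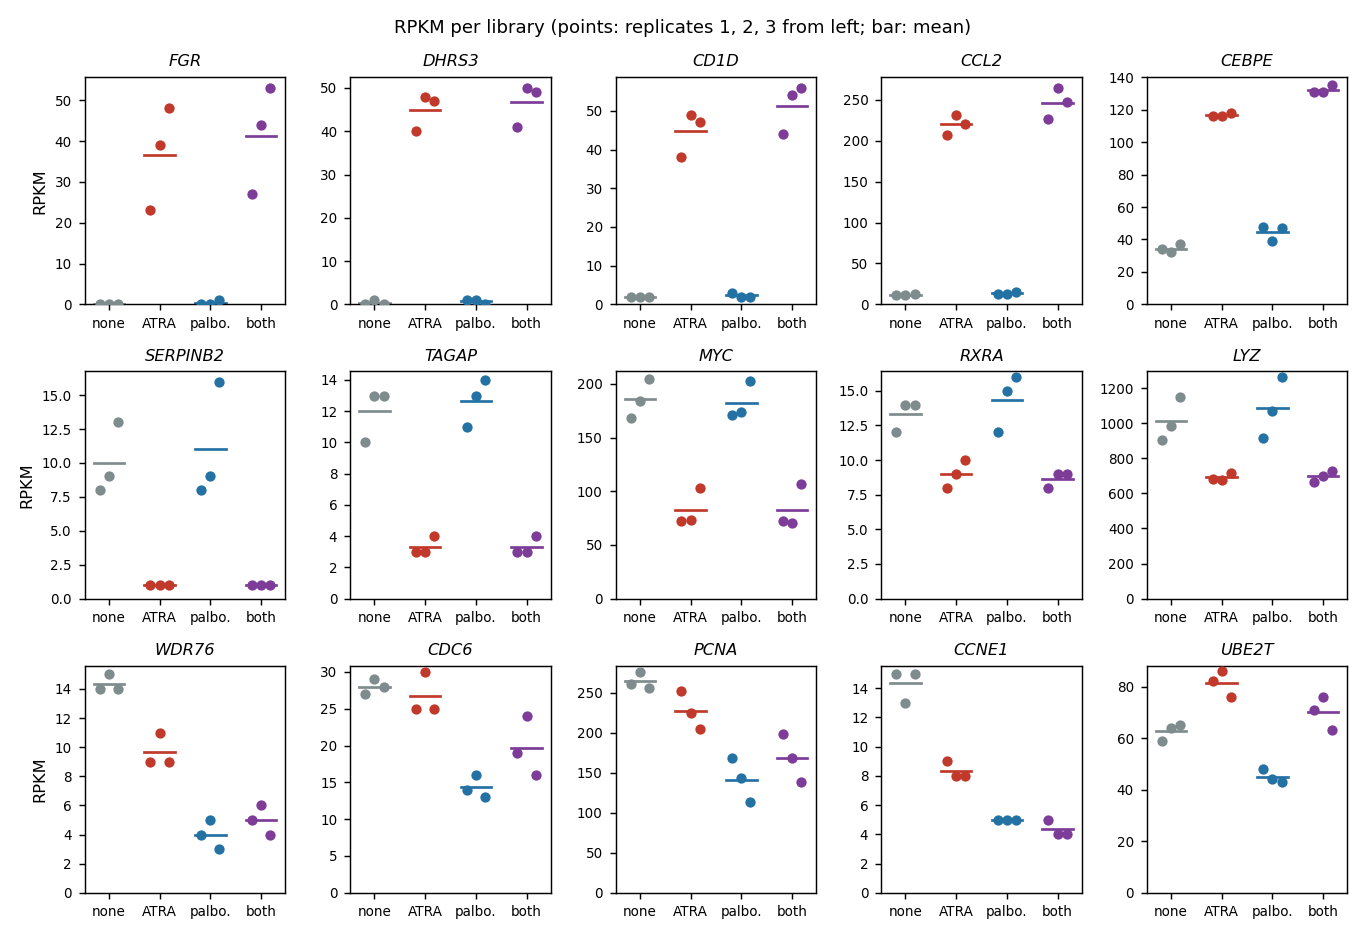
RPKM in each library for 15 genes, with untreated cells (none), ATRA, palbociclib (palbo.) and both drugs along the horizontal axis. Points are replicates 1, 2 and 3 from left to right and bars are means. The upper 5 genes stand higher with ATRA, the middle 5 lower, and in the lower 5 the palbociclib libraries are below the untreated ones.

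Genes that were lower with ATRA mostly lay near their untreated level under palbociclib. SERPINB2, an inhibitor of plasminogen activators (chromosome 18, 63871692 to 63903888), was at 1 RPKM in the 3 ATRA libraries and at 8, 9 and 16 with palbociclib, with untreated values of 8, 9 and 13 (difference -2.88 ± 0.19, SE, adjusted p = 1.86e-05). FAM46C, a cytoplasmic poly(A) polymerase, was at 2, 1 and 2 against 9, 10 and 11. The prostaglandin receptor gene PTGER4 was at 1, 1 and 2 against 6, 6 and 7, TAGAP at 3, 3 and 4 against 11, 13 and 14, and the AP-1 member FOSL2 at 2, 3 and 3 against 7, 11 and 9. GATA2, a factor of early blood cells, was at 3, 3 and 5 against 6, 10 and 12, and its call was lost in the fit of the 6 libraries without the block (adjusted p = 0.0888). Serpins did not move together, since SERPINB8 (-1.48) and SERPINB10 (-0.86) were lower and SERPINB1, an inhibitor of neutrophil proteases, was higher at 61, 68 and 75 against 21, 15 and 17 (1.92). The other genes of the 15 lowest were NAV3, PLD6, PLEC, TNFAIP8, LGR4, DLX1 and CDC42EP3, from -1.50 for NAV3 to -1.18 for CDC42EP3. In the combination libraries SERPINB2 was at 1 in all 3, FAM46C at 2, 1 and 2 and TAGAP at 3, 3 and 4.

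MYC, which drives growth and ribosome production, was at 72, 73 and 103 RPKM with ATRA and at 171, 174 and 203 with palbociclib, a difference of -1.16 ± 0.08 (SE, adjusted p = 2.9e-05). Palbociclib and untreated libraries (168, 184 and 205) overlapped. Of 38 ribosome biogenesis genes, all tested, 28 were called lower and 0 higher (33 and 0 at an unadjusted p under 0.05 in limma), with a median of -0.30, against 11.7% of all genes called lower and a median of 0. POLR1B, a subunit of RNA polymerase I, was at 12, 12 and 14 against 17, 20 and 23 (-0.63), URB2 at 5, 5 and 7 against 8, 10 and 11 (-0.73), and the helicase gene DDX21 at 167, 166 and 166 against 186, 201 and 215 (-0.27). The nucleolar gene NPM1 was not called, at 641, 520 and 519 against 647, 526 and 562. The mean log2 level of the 38 genes relative to the untreated mean was -0.38 ± 0.13 (SD, n = 3) with ATRA and -0.06 ± 0.08 (SD, n = 3) with palbociclib. The count of lower genes was 6 in the 6 libraries without the block, 14 without replicate 2 and 13 without replicate 3, with 0 higher in each.

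Genes of the primary granule list, mostly products of the promyelocyte stage, were called lower with ATRA more often than higher. LYZ was at 682, 677 and 717 RPKM against 918, 1071 and 1266 (-0.64), and MPO at 1116, 1077 and 1205 against 1347, 1400 and 1579 (-0.35). CTSG, MS4A3, RNASE2 and CST7 were lower as well, which made 6 of 10 tested, where 11.7% of all genes were called lower. SRGN, the proteoglycan core of granules, was higher at 1022, 1102 and 1069 against 726, 672 and 751 (0.57), as was SERPINB1, and AZU1 and PRTN3 were not called. PRTN3 lay higher with ATRA in each pair, at 284, 241 and 303 against 255, 195 and 235, and AZU1 was at 22, 17 and 18 against 22, 16 and 18. The lower count was 2 without replicate 2 or without replicate 3 and 1 in the 6 libraries with the block.

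Genes of DNA replication were lower with palbociclib than with ATRA. Of 41 S phase genes tested (the S phase list of the Seurat package, with 43 members), 38 were called higher with ATRA than with palbociclib and 0 lower, where 11% of all genes were called higher. The median difference was 0.48, and at an unadjusted p under 0.05 limma gave 39 higher and 0 lower. PCNA, the sliding clamp of replication, was at 252, 225 and 205 RPKM with ATRA and at 168, 143 and 114 with palbociclib, and untreated libraries were at 261, 276 and 256 (0.69 ± 0.09, SE, adjusted p = 0.000801). CDC6, which loads the replicative helicase (chromosome 17, 40287879 to 40304657), was at 25, 30 and 25 against 14, 16 and 13 (0.87 ± 0.08, SE, adjusted p = 0.000131), and 2 of its 3 ATRA values were below the untreated 27, 29 and 28. WDR76 showed the largest difference of the list at 9, 11 and 9 against 4, 5 and 3, from 14, 15 and 14 in untreated cells (1.19). CDCA7 was among the 3 members not called, at 37, 36 and 35 against 36, 39 and 37 from an untreated 60, 58 and 60.

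ATRA was not without effect on these genes. The mean log2 level of the S phase list relative to the untreated mean was -0.33 ± 0.03 with ATRA, -0.81 ± 0.11 with palbociclib and -0.74 ± 0.11 with both (SD, n = 3 each). Of 37 genes of replication licensing and the fork, 30 were called higher with ATRA and 0 lower, against 11% and 11.7% of all genes. At an unadjusted p under 0.05 in limma the counts were 31 and 1. The mean levels of the 37 genes, in the same order of groups, were -0.26 ± 0.04, -0.62 ± 0.08 and -0.57 ± 0.09 (SD, n = 3 each). All 6 subunit genes of the MCM2 to MCM7 helicase were among the 30, from 0.26 for MCM7 to 0.48 for MCM5. MCM3 was at 90, 90 and 90 against 68, 69 and 60. ORC1, of the origin recognition complex, was at 26, 31 and 29 against 17, 20 and 17 (0.66). Repair and checkpoint genes, some of which are also in the S phase list, gave 13 higher and 1 lower of 21, against the same shares of all genes. In the 6 libraries without the block the higher counts were 13 for S phase and 13 for licensing, and without replicate 3 they were 24 and 17.

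**Figure D3:**
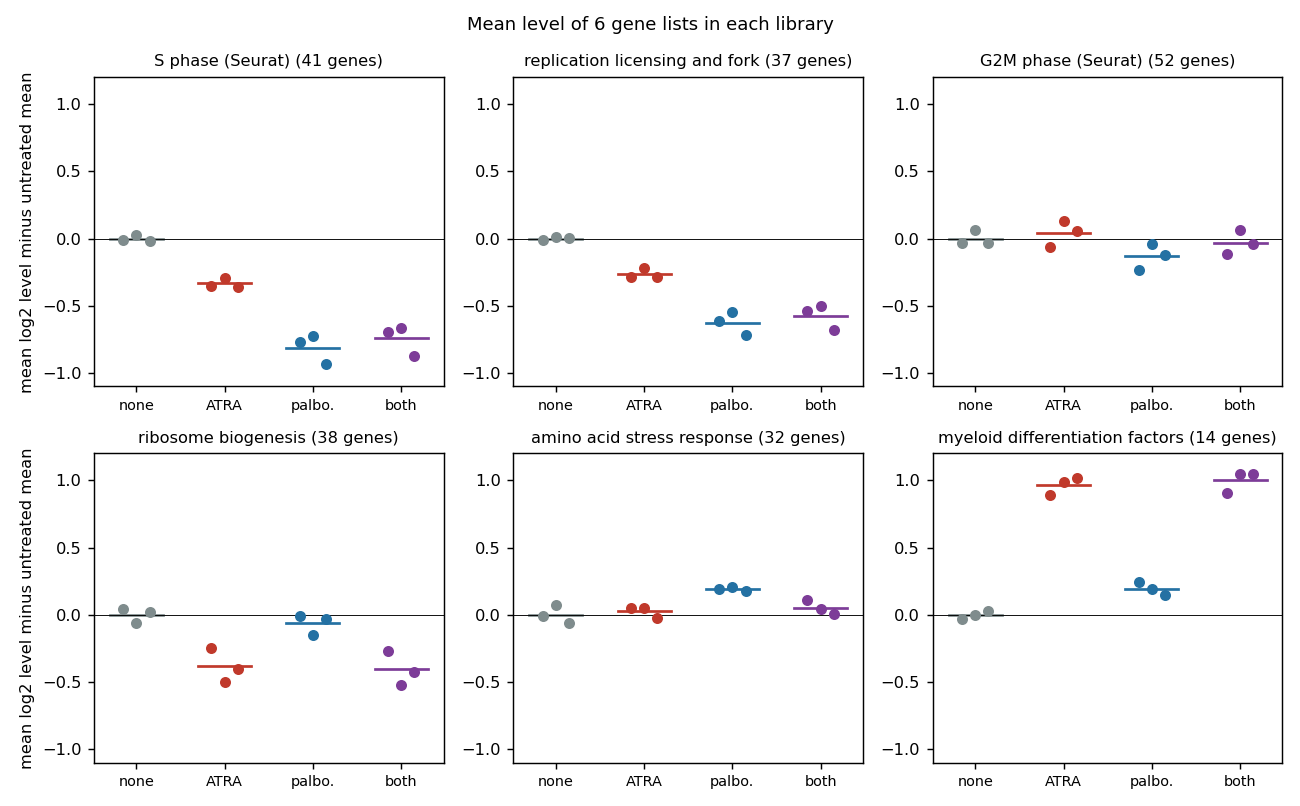
Mean log2 level of 6 gene lists in each library, with the mean of the untreated libraries set to 0 (vertical axis). Points are replicates 1, 2 and 3 from left to right and bars are means, for untreated cells (none), ATRA, palbociclib (palbo.) and both drugs. The S phase list is lowest with palbociclib, at -0.81, and the ribosome biogenesis list is lower with ATRA, at -0.38, than with palbociclib, at -0.06.

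The median log2 difference to untreated over 16 genes of the E2F and cyclin E axis was -0.27 with ATRA, -0.50 with palbociclib and -0.46 with both. CCNE1, the cyclin that activates CDK2 at the start of S phase, was at 9, 8 and 8 RPKM with ATRA, 5, 5 and 5 with palbociclib and 15, 13 and 15 in untreated cells (0.68 ± 0.07, SE, adjusted p = 0.000228). E2F1 was at 9, 8 and 8 against 5, 5 and 4, from an untreated 14, 12 and 12 (0.78 ± 0.08, SE, adjusted p = 0.000196). With both drugs these genes were at 5, 4 and 4 for CCNE1 and 4, 4 and 3 for E2F1. CCNE2 was below the filter, at 1, 1 and 2 with ATRA and 0 in the 3 palbociclib libraries, from 3 in untreated cells. Of 16 genes of this axis, 10 were called higher with ATRA and 0 lower, against 11% and 11.7% of all genes. At an unadjusted p under 0.05 in limma the counts were 12 and 1. E2F3, E2F4, TFDP1 and SKP2 were among those not called. Without the block the 6 libraries called 3, and without replicate 2 there were 5.

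Of 11 genes tested for cyclin D, the RB family, their kinases and inhibitors, 4 were called higher with ATRA and 1 lower, against 11% and 11.7% of all genes, with a median of 0.04. CDK4 was at 46, 42 and 41 RPKM with ATRA against 50, 45 and 47 with palbociclib, CDK6 at 6, 6 and 6 against 7, 8 and 8, and RB1 at 12, 18 and 16 against 14, 20 and 19, and none of these was called (adjusted p = 0.1, 0.135 and 0.106). The cyclin D gene CCND2 was lower with ATRA at 6, 3 and 4 against 8, 7 and 7 (-0.74), a call lost in 6 of 16 alternatives. RBL1, which encodes the RB relative p107, was higher at 7, 10 and 10 against 5, 7 and 5 (0.62), although the groups overlapped and its call was lost in 5 of them. The CDK inhibitor genes CDKN1B, at 14, 15 and 12 against 11, 12 and 11, and CDKN2C, at 4, 5 and 4 against 3, 3 and 3, were higher too, with calls lost in 5 and 6, as was WEE1, a kinase that restrains CDK1, at 6, 7 and 7 against 5, 5 and 5. Without replicate 2 the list had 1 higher and 0 lower. The inhibitor gene CDKN1A was below the filter, at 3, 5 and 4 with ATRA and 1 in each palbociclib and untreated library.

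Promoter sequences from RefSeq (GRCh38.p14, 250 bases before to 50 after the start) were searched on both strands for the E2F sites TTTCGCGC and TTTGGCGC, the motif through which E2F factors act on replication genes. Promoters of 7 called cell cycle genes that hold such an octamer are shown from before the gene's start, with the octamers in capitals. In MCM6 and RBL1 the octamers lie in pairs, and in MCM6 each TTTGGCGC overlaps a TTTCGCGC on the opposite strand.
MCM6, chr2:135876497-135876620, minus strand: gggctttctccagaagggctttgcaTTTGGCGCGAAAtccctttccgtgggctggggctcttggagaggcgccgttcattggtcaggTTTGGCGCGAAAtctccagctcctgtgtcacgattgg
RBL1, chr20:37095998-37096048, minus strand: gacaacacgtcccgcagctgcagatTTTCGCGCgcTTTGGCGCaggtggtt
E2F1, chr20:33686386-33686430, minus strand: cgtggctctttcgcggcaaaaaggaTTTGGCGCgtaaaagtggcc
CDC25A, chr3:48188429-48188486, minus strand: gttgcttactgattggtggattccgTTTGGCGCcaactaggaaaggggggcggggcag
CDK1, chr10:60778325-60778382, plus strand: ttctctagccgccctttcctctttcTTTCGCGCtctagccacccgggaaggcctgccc
GMNN, chr6:24775308-24775365, plus strand: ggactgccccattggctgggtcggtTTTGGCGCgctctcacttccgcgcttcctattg
UHRF1, chr19:4909959-4910016, plus strand: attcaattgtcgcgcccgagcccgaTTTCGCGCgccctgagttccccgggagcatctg

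The 7 genes were all called higher with ATRA than with palbociclib. They were picked from called cell cycle genes, so their shared direction says nothing about the octamer. Octamers also stood before genes called lower with ATRA, such as GARS, RRP7A and TWISTNB. MCM6 was at 78, 74 and 71 RPKM against 65, 59 and 55. CDC25A, the phosphatase that activates CDK2, was at 22, 21 and 22 against 18, 19 and 18, and CDK1, the mitotic kinase, at 46, 52 and 44 against 37, 43 and 38. The licensing inhibitor gene GMNN was at 33, 31 and 28 against 24, 22 and 18, and UHRF1, which guides maintenance methylation, at 36, 41 and 44 against 26, 31 and 30. The calls of MCM6, CDC25A and CDK1 were lost in 5 or 6 of 16 alternatives.

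An E2F octamer stood in 30 of 186 promoters (16.1%) of genes called higher with ATRA for which palbociclib lay farther from the untreated mean, in 7 of 486 (1.44%) of those for which ATRA lay farther, and in 10 of 29 (34.5%) of the called S phase genes. Among genes not called it stood in 123 of 4089 (3.01%), and among all 27305 genes with a promoter in 1.4%. Among genes called lower with ATRA, the octamer stood in 9 of 618 (1.46%) for which ATRA lay farther. Where palbociclib lay farther, it stood in 2 of 114 (1.75%). The cell cycle element TTTGAA stood in 48 of the same 186 (25.8%), in 73 of the 486 (15%), in 542 of the 4089 (13.3%) and in 18.2% of all. The retinoic acid response element of the DR5 type stood in 1 of the 486 (0.206%), in 1 of the 186 (0.538%), in 2 of the 4089 (0.0489%) and in 0.106% of all. Only 70.1% of the tested genes, 77.8% of the first group and 78.3% of the second had a promoter, so as a comparison of groups this is void, and the shares describe the genes that had one. No test was made.

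For most called genes, ATRA was the drug that lay farther from the untreated level. Among the 860 higher genes, the ATRA mean lay farther from the untreated mean than the palbociclib mean for 621 (72.2%), and among the 915 lower genes for 776 (84.8%), where the share over all tested genes was 60%. These shares use the same libraries as the calls and are given as a description. For the 621 genes the median log2 difference to untreated was 0.56 with ATRA, 0.08 with palbociclib and 0.58 with both drugs. The 776 genes showed medians of -0.37, -0.04 and -0.38. The 239 higher genes on the palbociclib side had medians of -0.08, -0.40 and -0.27, so that the combination lay between the single drugs. For the 139 lower genes on the palbociclib side the medians were -0.06, 0.20 and 0.00.

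The mean log2 differences to untreated had opposite signs under the drugs for 75 of these 239 genes and for 162 of the 621. Over all tested genes it was so for 581 of 3125 with palbociclib farther and 956 of 4695 with ATRA farther. Among the lower genes it was so for 267 of the 776 and 95 of the 139. Only signs were counted, with no minimum size and no test, so differences close to the untreated mean count too. Calling genes for a difference between the drugs also favours opposite signs, so these counts are a description. UBE2T, a ubiquitin-conjugating enzyme of the Fanconi anaemia pathway, was at 82, 86 and 76 RPKM with ATRA, 48, 44 and 43 with palbociclib and 59, 64 and 65 in untreated cells (0.85 ± 0.07, SE, adjusted p = 6.18e-05). With both drugs it was at 71, 76 and 63. Among the 621, POLD1, the catalytic subunit of DNA polymerase delta, was at 26, 29 and 27 against 20, 21 and 19, from 23, 24 and 22. LBR, the lamin B receptor, was at 95, 127 and 133 against 48, 63 and 58, from 65, 69 and 64 (1.06). UBE2T was chosen after its values were seen.

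The G2M list showed smaller differences than S phase. Of 52 genes tested, 23 were called higher with ATRA and 0 lower (28 and 1 at an unadjusted p under 0.05 in limma), where 11% of all genes were called higher, with a median of 0.17. KIF2C, a mitotic kinesin, was at 40, 44 and 42 RPKM against 33, 35 and 33, and NDC80, of the kinetochore, at 31, 35 and 29 against 24, 28 and 22. CDC20, which activates the anaphase-promoting complex, was not called, at 121, 121 and 122 against 120, 122 and 119. The mean log2 level of the list relative to untreated was 0.04 ± 0.10 with ATRA and -0.13 ± 0.10 with palbociclib (SD, n = 3 each). In the 6 libraries without the block 3 members were called, and leaving out replicate 1, 2 or 3 gave 14, 6 and 7.

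**Figure D4:**
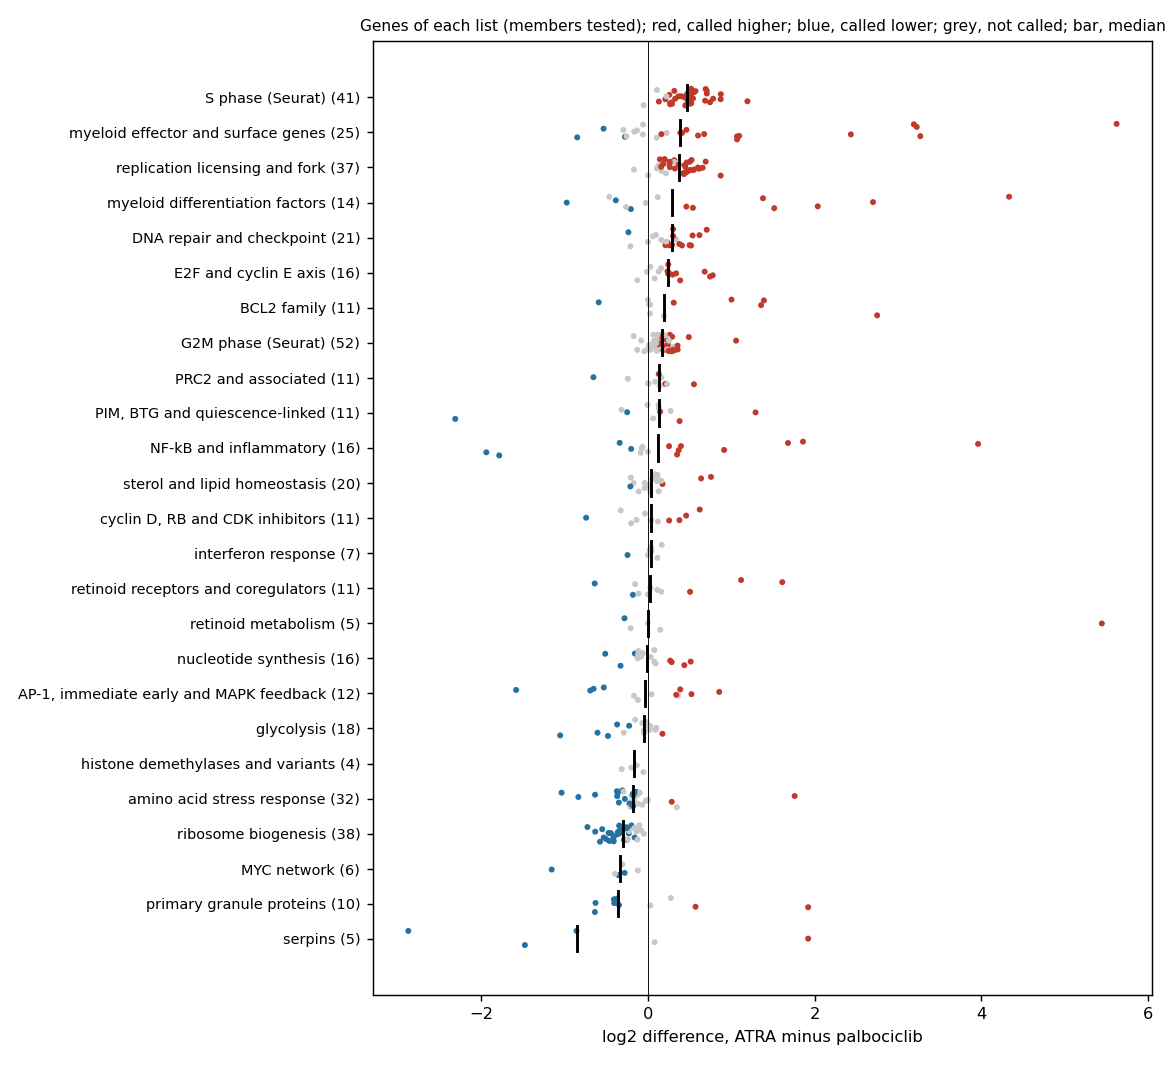
Log2 difference, ATRA minus palbociclib (horizontal axis), of the tested genes of 25 lists, ordered by their medians (bars), with the number tested in parentheses. Red points were called higher, blue points lower and grey points not called. The S phase list has 38 red points and no blue one, and the ribosome biogenesis list 28 blue points and no red one.

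In the amino acid stress response, which ATF4 controls, 16 of 32 tested genes were called lower with ATRA than with palbociclib and 2 higher, against 11.7% and 11% of all genes, with a median of -0.18. SLC7A5, the large neutral amino acid transporter, was at 27, 22 and 24 RPKM with ATRA and at 42, 43 and 46 with palbociclib, from 39, 43 and 39 (-0.83 ± 0.09, SE, adjusted p = 0.000247). TRIB3 was at 13, 13 and 14 against 23, 20 and 20 (-0.63). CHAC1, which breaks down glutathione, was at 4, 3 and 2 against 9, 6 and 5 (-1.04), and its call was lost when any replicate was left out. The tRNA synthetase genes MARS and SARS were at 43, 42 and 43 against 48, 48 and 49 and at 27, 27 and 27 against 31, 31 and 31. ATF4 itself was not called, at 269, 212 and 199 against 301, 239 and 224. DDIT4, an inhibitor of mTORC1, went the other way at 30, 33 and 25 against 8, 10 and 7, from 4, 5 and 3 (1.76 ± 0.06, SE, adjusted p = 3.92e-07), as did WARS (0.29). Relative to untreated, the mean log2 level of the list was 0.03 ± 0.04 with ATRA and 0.19 ± 0.02 with palbociclib (SD, n = 3 each). Leaving out replicate 1, 2 or 3 gave 10, 4 and 6 lower genes, and the 6 libraries without the block gave 5.

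The remaining lists moved in part, and their counts are to be read against the 11% of all genes called higher and the 11.7% called lower. Of 11 BCL2 family genes, 5 were higher and 1 lower with ATRA. The proapoptotic genes BIK and PMAIP1 were at 18, 21 and 23 RPKM against 2, 3 and 3 (2.75) and at 38, 44 and 41 against 16, 15 and 16 (1.36), BCL2A1, which protects cells, was at 13, 13 and 13 against 5, 5 and 4 (1.39), and BCL2 was at 8, 8 and 8 against 11, 13 and 13 (-0.59). In the NF-kB and inflammatory list, 8 of 16 were higher and 4 lower, with the chemokine gene CXCL8 at 54, 66 and 58 against 16, 14 and 18 (1.86) and TNF at 94, 86 and 98 against 61, 70 and 81 (0.40). Of 18 glycolysis genes, 5 were lower and 1 higher. Hexokinase 2 (HK2) was at 17, 13 and 17 against 29, 32 and 38 (-1.05) and the glucose transporter gene SLC2A1 at 5, 4 and 5 against 7, 7 and 8 (-0.60), while GAPDH was at 1035, 952 and 957 against 1006, 929 and 950 and was not called.

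The lists of AP-1 and early genes (4 higher and 4 lower of 12), nucleotide synthesis (4 and 3 of 16), sterol and lipid genes (3 and 1 of 20) and quiescence-linked genes (3 and 2 of 11) showed no common direction. In nucleotide synthesis the members split by role. RRM1, RRM2, TYMS and TK1, which make deoxynucleotides, were higher with ATRA, with RRM2 at 53, 64 and 56 RPKM against 41, 45 and 35, while PPAT, CAD and CTPS1, of the purine and pyrimidine pathways, were lower, with PPAT at 10, 10 and 11 against 13, 16 and 16. The MYC network list had 3 lower of 6, which were MYC, MAX and MLX, and the call of MAX was lost in 9 of 16 alternatives.

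Among further genes that the study names for chromatin and differentiation, EZH2, the methyltransferase of PRC2, was at 20, 19 and 19 RPKM with ATRA and at 17, 17 and 16 with palbociclib (0.21 ± 0.04, SE, adjusted p = 0.00452), from 24, 23 and 24 in untreated cells. Its call was lost in 4 of 16 alternatives. The demethylase gene KDM6B was not called, at 3, 4 and 4 against 4, 5 and 5 (-0.31, adjusted p = 0.102). HIST1H2BK was at 6, 6 and 6 against 8, 6 and 7 and was not called. PPARG and HIST1H2BD were below the filter, PPARG at 2, 2 and 1 against 1, 1 and 1 and HIST1H2BD at 2, 2 and 2 against 2, 2 and 3. The study names EZH2 and KDM6B for palbociclib added to ATRA, and PPARG from a transcription factor analysis of the combination. Those comparisons differ from the one made here. For the 4 tested histone demethylase and variant genes, the median log2 difference to untreated was 0.41 with ATRA and 0.55 with palbociclib.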

How the data were processed

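RNA of HL-60 cells was sequenced in 12 libraries, 3 for each of 4 conditions. Per the study's methods, the authors prepared poly(A) libraries, aligned reads to hg38 (HISAT2) and obtained gene counts from htseq-count at default options (versions not given in the sources used here). The deposited score values are RPKM that the authors rounded to whole numbers, without pooling. All 12 value columns were mapped to samples by their labels. Read counts were not used here, so no counting error is given, and a count test could not be run.

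Values were compared as log2(RPKM + 0.5) with limma 3.58.1 (R 4.3.3), eBayes with a variance trend, Benjamini-Hochberg adjustment over 7820 genes and a threshold of 0.05. Log2 differences understate the change of low genes. The result given is the fit of all 12 libraries with the replicate number as a block, in which the ATRA minus palbociclib difference is the mean over the 3 pairs and all groups share the estimate of the spread. The design first written named the 6 libraries of the contrast alone. Its reason was that combination libraries resemble same-numbered ATRA libraries, which would make the shared spread too small for this contrast. The deviations from the group means of same-numbered ATRA and combination libraries correlated across genes at 0.911, 0.819 and 0.792. Standard errors and adjusted p-values of the 12-library fit may thus be too small. On simulated rounded data with known changes, the 6-library fit made more false calls and recovered fewer changed genes than the 12-library fit. That simulation took its spread from genes with higher levels only and drew the 3 replicates alike. In these data most tested genes are lower and replicate 1 stands apart, so the simulation cannot decide which fit is right here. The 12-library fit was among the alternatives written at the same time as the design. It replaced the 6-library fit after the results of both had been seen. The 12-library fit also calls more genes in these data. The labels do not say what a replicate number shares. The deviations from the group means of same-numbered ATRA and palbociclib libraries correlated across genes at 0.763, 0.614 and 0.533, each over 0.1, so the numbers were taken to pair them. Differently numbered libraries of these groups ran from -0.579 to 0.258. Deviations from a group mean cancel within each group, so these values lean negative wherever same-numbered ones are positive. Replicate 1 stood apart in both groups, and its share in this pattern was not tested. Replicates 2 and 3 passed 0.1 across numbers too (0.191 and 0.258), below each same-numbered value. Untreated libraries paired less well (0.0861 to 0.381 with ATRA).

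The members and lists were chosen with earlier results of these data known, and no list was tested as a set. Lists were matched by symbol and RefSeq synonyms. Named genes were the 15 largest called differences in each direction whose libraries did not overlap and whose higher group had a mean of at least 5 RPKM, the list members, and genes the study names. From within this rule the text picks after the values were seen, and a few items are not reported here. Coordinates are from GENCODE v44. Exact permutation tests of single genes were not used, as 3 pairs cannot give a p below 0.25. Tables and plots used Python with pandas.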

Additional observations from a re-analysis of the deposited data

How the results depend on the processing

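The numbers of genes called higher and lower with ATRA (860 and 915) were 373 and 267 in the 6 libraries with no replicate block and 506 and 415 in the 12 libraries with no replicate block. With the replicate block they were 814 and 781 in the 6 libraries and 1229 and 1428 in the 9 treated libraries. At an adjusted p under 0.001 they were 291 and 154. Leaving out the pair of replicate 1, 2 or 3 gave 405 to 636 higher and 274 to 644 lower. A stricter minimum of 10 RPKM gave 630 and 667, a minimum of 1 RPKM 977 and 963, and libraries centred on their medians 635 and 959, which moved the share of higher calls from 48.5% to 39.8%. No called gene was called in the opposite direction under any of the 16 alternatives. In the 6 libraries with the block, 605 of the 860 and 510 of the 915 were called the same way. Of 277 called genes named by the rule or followed in the lists, 90 kept their call under all 16, as did 29 of the 30 largest differences, the exception being GATA2. The causes of these shifts were not tested. Rounding to whole RPKM limits what can be seen in genes near the minimum.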
